A study of Drosophila melanogaster with 24 samples.

Results

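The day-night change of transcripts in large PDF neurons was compared between wild-type flies and flies that lack a working period gene. A transcript was a member of the set when its probe set was called between ZT12 and ZT0 in wild-type large PDF neurons, at an adjusted p under 0.05 from limma's moderated test on log2 values. This gave 182 of 8318 tested probe sets (2.19%), of which 82 rose (0.986%) and 100 fell (1.2%) at ZT12, and 165 of them carried 1 gene symbol, for 161 of 6663 genes. The 3 arrays at ZT0 and the 3 at ZT12 did not overlap in 181 of the 182, beside 19.3% of all probe sets, a consequence of the choice. Without wild-type ZT0 replicate 3 the count was 116. The level in per01 was placed against the wild-type ZT0 and ZT12 levels only for the 124 members whose mean over the 4 per01 arrays was at least log2 5, taken as background. The question was which wild-type changes were not seen in the per01 samples, and near which end of the wild-type cycle the per01 level of each transcript lay.

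Large PDF neurons are clock neurons of the adult fly brain that release the neuropeptide PDF. Their GFP-marked cells (labelled pdf-GFP) were collected from about 50 dissociated adult brains per sample, kept in 12 h of light and 12 h of dark, where ZT0 is lights-on and ZT12 lights-off by convention. Wild-type samples came from the yw background, male and female, with 3 arrays each at ZT0 and ZT12 and 2 each at ZT6 and ZT18. The per01 samples came from males of the per01 background, with 2 arrays each at ZT0 and ZT12. Small PDF neurons, the other PDF-releasing clock neurons, also in the yw background with 2 arrays per time, served as a day-night comparison of the same size as per01. Genotype, strain background and sex composition cannot be told apart. The replicates are biological per the labels, and with 2 arrays per time in per01 their number limits the precision. In such pooled cells, fewer cells of a type and less RNA per cell cannot be told apart.

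In the fly clock, the CLK and CYC proteins switch on period (per), timeless (tim), vrille (vri) and Pdp1, and PER returns to the nucleus with TIM to repress CLK and CYC. VRI represses the Clk gene and PDP1 activates it, so that Clk transcript runs opposite to vri transcript. The per01 allele carries a nonsense change, so the protein is missing while the transcript can still be made, and the per probe set therefore does not check the genotype label. Without PER, CLK and CYC are no longer repressed in a daily rhythm, although light still reaches the neurons directly.

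All 5 PDF-neuron markers (Pdf, Fer2, Hr51, cry and tim) averaged at least 5 in both genotypes and at both times, and none of the 7 photoreceptor or 5 muscle markers did. Of 9 glial markers 4 averaged at least 5 in wild type at ZT0, 3 at ZT12 and 1 in per01 at each time. Their summed level ran from 8.25 to 10.77 at ZT0 and from 8.58 to 9.39 at ZT12 in wild type, and from 6.90 to 7.26 in per01. The highest of these was wild-type ZT0 replicate 2, where the glial glutamine synthetase gene Gs2 stood at 9.53. Of 9 fat body markers 5 averaged at least 5 in wild type and 2 in per01, and of 8 haemocyte markers 4 did at wild-type ZT0, 3 at ZT12 and 2 in per01. The haemocyte markers Ppn and vkg stood at 10.30 and 8.66 on wild-type ZT0 replicate 2. On the other wild-type ZT0 arrays they stood at up to 5.17 and 4.12. The yolk protein genes Yp1, Yp2 and Yp3, made in females, reached 5 on wild-type arrays, and in per01 Yp3 did so on 1 array. Array medians were 3.16 to 3.36 on the wild-type large PDF arrays at ZT0 and ZT12 and 2.57 to 2.596 in per01. Of all probe sets except controls, 33.4% to 35.7% were at least 5 on these wild-type arrays and 28.6% to 29.9% in per01. The part of these differences in the results below was not tested.

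None of the 182 members was called between ZT12 and ZT0 in per01, although 1, Pka-R1, was called under 4 other settings of the analysis. Of all 8318 probe sets only CG4830 was called there (0.012%), and it was lower at ZT12. At an unadjusted p under 0.05, 301 probe sets differed in per01 (3.62%), and among the members 16 did so in the wild-type direction and 11 against it. In the small PDF neurons, with the same number of arrays per time, 282 probe sets were called (3.39%), and 42 of the 182 members were called in the wild-type direction and 1 against it. The median standard deviation of a member was 0.33 and 0.25 at ZT0 and ZT12 in per01 and 0.34 and 0.43 in small PDF neurons, and the fit pooled the spread over all groups. The count of 282 was 166, 133 and 156 without small PDF ZT0 replicate 1, ZT0 replicate 2 and ZT12 replicate 1. Leaving out per01 ZT0 replicate 1 gave 3 called probe sets in per01, and none was a member.

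The per01 difference had the wild-type sign in 100 of 182 members, and its ratio to the wild-type difference had a median of 0.018. In small PDF neurons 140 of 182 had the same sign and the median ratio was 0.36. By direction the median ratio was 0.095 for rises and -0.001 for falls in per01, and 0.34 and 0.39 in small PDF neurons. Among members averaging at least 5 in per01, the per01 difference had the wild-type sign in 36 of 53 rises and 36 of 71 falls. Their median ratios in per01 were 0.18 and 0.012. The time difference reached at least 0.5 of the wild-type one, in the same direction, for 17 members in per01 and 73 in small PDF neurons. For 73 members the 95% interval of the per01 difference lay wholly under 0.5 of the wild-type difference, while for the other members the interval reached that size. Wild-type differences themselves are a description here, since they chose the members.

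**Figure D1:**
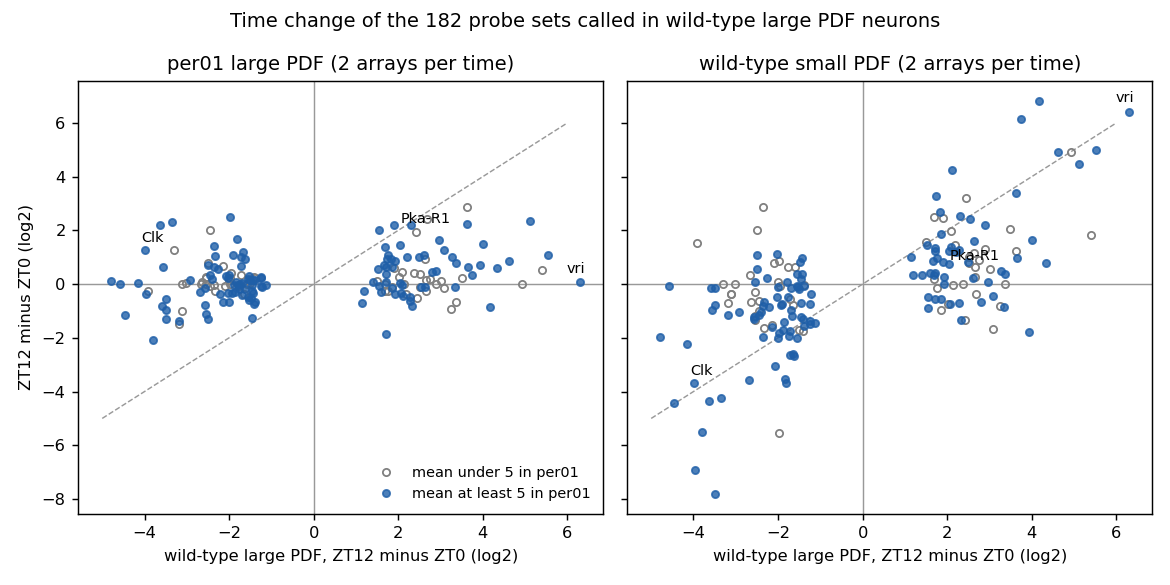
ZT12 minus ZT0 (log2) for each of the 182 members in per01 large PDF neurons (left) and in wild-type small PDF neurons (right), against the same difference in wild-type large PDF neurons; filled points averaged at least 5 over the per01 arrays and the dashed line marks equal change. In per01 the points lie along zero (median ratio 0.018), while in small PDF neurons more lie towards the dashed line (median ratio 0.36).

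The difference between the genotypes was tested as an interaction, per01 ZT12 minus ZT0 less wild-type ZT12 minus ZT0. It called 12 of 8318 probe sets (0.144%), 7 higher and 5 lower. Of the 12, 11 were members and each of these went against the wild-type change, on the same wild-type arrays that chose the members. At an unadjusted p under 0.05 the interaction had 707 probe sets (8.5%). Set against small PDF neurons instead, 93 probe sets were called (1.12%), among them 22 members, of which 20 went against the wild-type change. The small PDF means did not enter the difference that chose the members, but their arrays entered the filter on level and the pooled spread. The count of 93 was 41 to 54 without any 1 of the per01 arrays and 48 without small PDF ZT0 replicate 2. The count of 12 became 34 without wild-type ZT0 replicate 1, 2 without ZT0 replicate 2 and 4 without ZT12 replicate 3. It became 7 and 4 without per01 ZT0 replicate 1 or 2, and 4 without either per01 ZT12 array. A fit on only the groups compared called none in wild type, in per01 or in the interaction, with fewer arrays to estimate the spread.

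Of the clock genes, vri had the interaction that held best. The repressor gene vri stood at 6.20, 8.58 and 8.29 on the wild-type ZT0 arrays and at 13.73, 14.45 and 13.74 at ZT12. In per01 it stood at 13.43 and 13.01 at ZT0 and at 13.30 on both ZT12 arrays. All 4 per01 arrays were thus far above the wild-type ZT0 arrays and just below the ZT12 arrays. The wild-type rise of 6.29 ± 0.56 became 0.08 ± 0.69 in per01, an interaction of -6.21 ± 0.89 (adjusted p = 0.00879). This call held without each of the 10 arrays in turn, and the small PDF neurons rose by 6.41, with an interaction against per01 of -6.34 (adjusted p = 0.00216).

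Clk, the activator gene that VRI represses, stood at 8.78, 9.98 and 10.34 on wild-type ZT0 arrays and at 7.42, 4.35 and 5.38 at ZT12. In per01 it stood at 7.11 and 7.66 at ZT0 and at 8.56 and 8.78 at ZT12. The groups did not overlap in either genotype, but they ran in opposite directions. As deposited, the per01 arrays lay from inside the wild-type ZT12 range up to the lowest ZT0 array. Clk in per01 averaged 0.42 of the way from wild-type ZT0 to ZT12, and 0.26 and 0.22 under the 2 other scalings described below. The wild-type difference was -3.99 ± 0.62, the per01 difference was 1.28 ± 0.76 (adjusted p = 1), and the interaction was 5.27 ± 0.98 (adjusted p = 0.0345). The interaction was called in only 2 of the 10 fits that left out 1 array, with an adjusted p of up to 0.189 without per01 ZT12 replicate 1. Against small PDF neurons it was 4.96 (adjusted p = 0.0254).

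The transcript of per itself, whose protein is missing in per01, stood at 7.77, 7.87 and 8.18 on wild-type ZT0 arrays and at 11.43, 12.70 and 10.67 at ZT12. In per01 it stood at 8.75 and 8.11 at ZT0 and at 9.64 and 8.50 at ZT12, under every wild-type ZT12 array. The mean per01 level of per lay 0.22 of the way from wild-type ZT0 to ZT12, and 0.38 and 0.43 of the way under the 2 other scalings described below. Its interaction was -3.01 ± 0.82 and was not called (adjusted p = 0.268). Pdp1, the activator of Clk, stood at 9.88, 10.74 and 10.72 at ZT0 and at 12.45, 11.79 and 12.23 at ZT12 in wild type. Its per01 arrays read 11.77 and 12.88 at ZT0 and 12.34 and 13.05 at ZT12, so all 4 were above every wild-type ZT0 array. The Pdp1 interaction of -1.35 ± 0.64 was not called (adjusted p = 0.586). Its wild-type rise was called in only 1 of the 6 fits that left out a wild-type array.

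The remaining clock genes were not members. For tim, the partner of PER, wild type read 12.29, 12.47 and 12.74 at ZT0 and 13.48, 13.82 and 13.86 at ZT12, a difference of 1.22 ± 0.44 (adjusted p = 0.152), and the per01 arrays lay between 13.27 and 13.45 at both times. The wild-type time difference was 0.74 ± 0.37 for cyc, 0.79 ± 0.37 for the repressor gene cwo and 0.08 ± 0.67 for the light receptor gene cry. In per01 these were -0.60, 0.50 and 1.14, and none was called. Pdf lay between 15.50 and 16.20 on every wild-type and per01 array compared. Of 8 measured core clock genes, 3 rose and 1 fell in wild type (50%, beside 2.19% of all probe sets). None was called in per01, where 0.012% of all probe sets were.

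**Figure D2:**
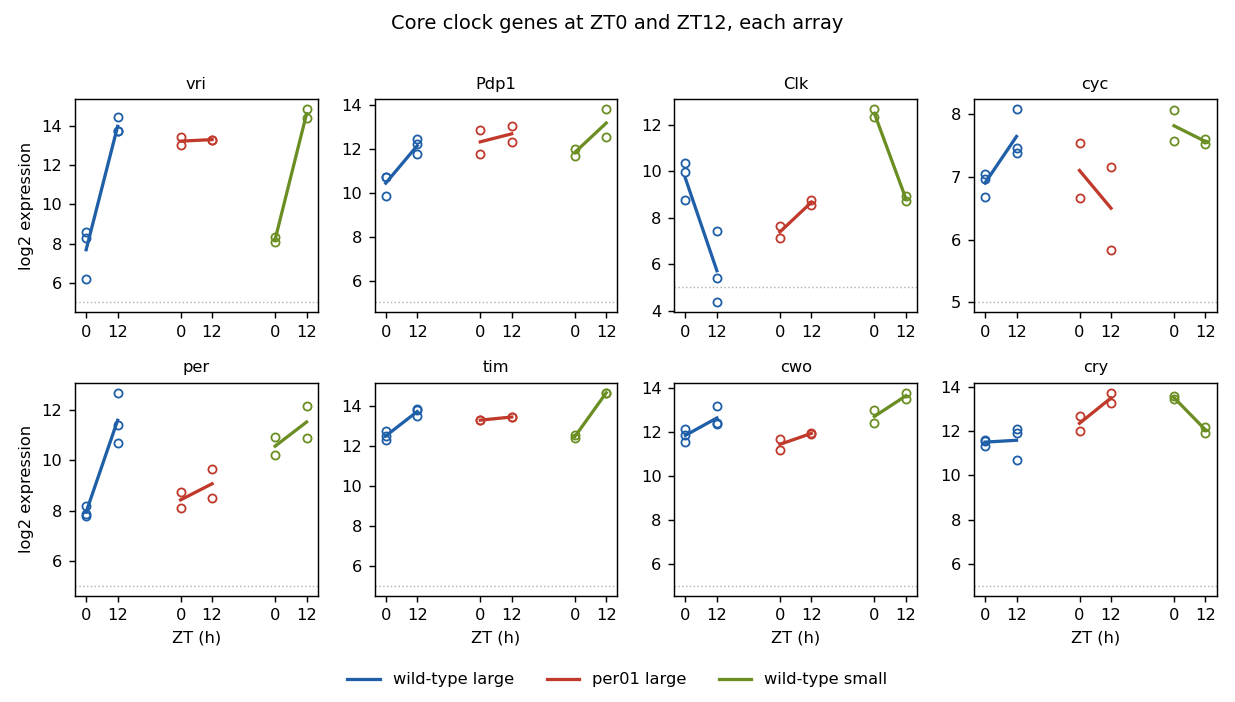
Log2 expression of 8 clock genes at ZT0 and ZT12, with 1 circle per array and lines joining group means, in wild-type large, per01 large and wild-type small PDF neurons; the dotted line is background (5). The per01 line for vri is flat at about 13.3 where both wild-type kinds rise by over 6, and the per01 line for Clk runs opposite to both.

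Of 13 measured genes listed as targets of CLK and CYC or of VRI and PDP1, 5 rose in wild type (vri, Pdp1, per, cbt and Pura) and none was called in per01, beside 82 of 8318 rises over all probe sets (0.986%). Pura read 4.46, 3.70 and 4.88 at wild-type ZT0 and 8.97, 7.06 and 9.50 at ZT12. In per01 it read 6.87 and 7.62 at ZT0 and 5.52 and 7.27 at ZT12. As deposited, these were above every wild-type ZT0 array and overlapped only the lowest ZT12 array. Pura in per01 averaged 0.59 of the way from wild-type ZT0 to ZT12, and 0.77 under each of the 2 other scalings. Its interaction missed the threshold at -5.02 ± 0.98 (adjusted p = 0.0519) against wild-type large PDF neurons and passed it at -7.68 against small ones (adjusted p = 0.00114). For the zinc finger factor gene cbt, wild type read 10.18, 8.99 and 9.37 at ZT0 and 11.96, 12.49 and 11.92 at ZT12. In per01 it read 9.46 and 9.04 at ZT0 and 11.24 and 9.44 at ZT12. As deposited, 1 per01 array thus stood apart and all 4 lay under the wild-type ZT12 arrays. The per01 mean of cbt lay 0.11 of the way from wild-type ZT0 to ZT12, and 0.30 and 0.40 under the 2 other scalings. The ubiquitin ligase gene ctrip alone rose in a list of 15 clock kinase and degradation genes (6.67%, beside 2.19% of all probe sets). It had differences of 1.73 ± 0.36 in wild type and 0.92 ± 0.43 in per01, and its other probe set had the opposite sign.

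Besides vri and Clk, the interaction called single probe sets of 10 further genes. Gpdh1, the cytosolic glycerol-3-phosphate dehydrogenase, was measured by 4 probe sets. On the called one, wild type read 10.65, 10.09 and 9.93 at ZT0 and 8.53, 8.27 and 8.40 at ZT12, and per01 read 8.12 and 6.72 at ZT0 and 9.04 and 9.19 at ZT12. The fall in wild type thus stood against higher ZT12 arrays in per01, with no overlap in either. The interaction was 3.52 ± 0.65 (adjusted p = 0.0345), and it was called in 2 of the 10 fits without 1 array, with an adjusted p of up to 0.189 without per01 ZT12 replicate 1. On the other 3 probe sets it was 2.57, 2.70 and 5.64 (adjusted p = 0.0523, 0.231 and 0.0692), so all 4 had the same sign. Small PDF neurons called Gpdh1 lower at ZT12 on all 4, by -2.61 to -4.30.

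Rim2, a mitochondrial nucleotide carrier, read between 8.90 and 9.02 at wild-type ZT0 and 7.25, 7.42 and 7.28 at ZT12. In per01 it read 7.13 and 6.20 at ZT0 and 8.21 and 7.50 at ZT12, again in the opposite order, with an interaction of 2.85 ± 0.49 (adjusted p = 0.0325). CG18549 followed the same order, with wild type at 9.67, 9.52 and 10.02 and then 7.39, 8.15 and 8.56, and per01 at 8.09 and 8.25 and then 9.49 and 8.87 (interaction 2.72 ± 0.49). The gene l(1)G0469 stood at 8.53, 7.75 and 7.91 and then 6.42, 6.05 and 5.76 in wild type. In per01 it was at 5.28 and 5.58 and then 8.28 and 7.58, with an interaction of 4.48 ± 0.80. Rim2 was called in 5 of the 10 fits without 1 array, CG18549 in 4 and l(1)G0469 in 3, and for each the highest adjusted p (0.213, 0.218 and 0.214) came without per01 ZT12 replicate 1. The wild-type call of l(1)G0469 was lost in all 6 fits that left out a wild-type array, as was that of Octbeta1R, named below. The wild-type call held in 1 of these 6 fits for Pdp1 and ND-15. It held in 2 for nej, mthl14, Prosbeta2, CG42540 and the Gpdh1 probe set called in the interaction.

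Further calls rested on values close to background. The chloride channel gene ClC-a read 5.61, 6.03 and 4.72 at wild-type ZT0 and at most 3.09 at ZT12, while per01 read 4.16 and 2.94 at ZT0 and 5.09 and 6.04 at ZT12. Its interaction was 4.46 ± 0.74 (adjusted p = 0.0325), and with values under 5 raised to 5 it was no longer called (adjusted p = 0.434). Without 1 array it was called in 6 of 10 fits. CG8916 read between 5.31 and 7.18 at wild-type ZT0 and at most 2.97 at ZT12, and all its per01 arrays were under 5 (interaction 4.57 ± 0.85, called in 1 of 10 fits without 1 array). CG14086 rose from under 5 on all wild-type ZT0 arrays to 7.42, 5.74 and 8.26 at ZT12, a mean 2.14 on the log2 scale above the background of 5, and was at 2.12 on each per01 array. It rose in small PDF neurons by 4.92. Its interaction was -4.92 against either kind (adjusted p = 0.0461 against large and 0.0238 against small ones). Against large ones it was called in 2 of 10 fits without 1 array. With values under 5 raised to 5, neither the CG8916 nor the CG14086 interaction against large ones was called (adjusted p = 0.551 and 0.2975).

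Among the interaction calls, CG43658 stayed at the ZT0 level in per01. Its wild-type arrays read 6.60, 6.85 and 7.07 at ZT0 and 10.27, 10.99 and 10.47 at ZT12, and its per01 arrays read 7.18 and 5.56, then 6.86 and 6.57. The interaction was -3.39 ± 0.59 (adjusted p = 0.0325) against large and -5.80 (adjusted p = 0.000114) against small PDF neurons, and the first was called in 5 of 10 fits without 1 array. The acetyltransferase gene nej (CBP, a coactivator) rose in wild type from 7.33, 7.98 and 8.71 to 9.90, 9.99 and 9.24 and went from 9.69 and 8.09 to 7.36 and 6.72 in per01. Its interaction was -3.56 ± 0.66 (adjusted p = 0.0345), but it was called in 3 of 10 fits without 1 array, and its other probe set had the opposite sign. CG4830, the called probe set that was no member, was at 6.12 and 5.24 at per01 ZT0 and under 5 on every other array compared. Its per01 difference of -2.73 ± 0.31 (adjusted p = 0.000567) was not called with values under 5 raised to 5 (adjusted p = 0.789).

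**Figure D3:**
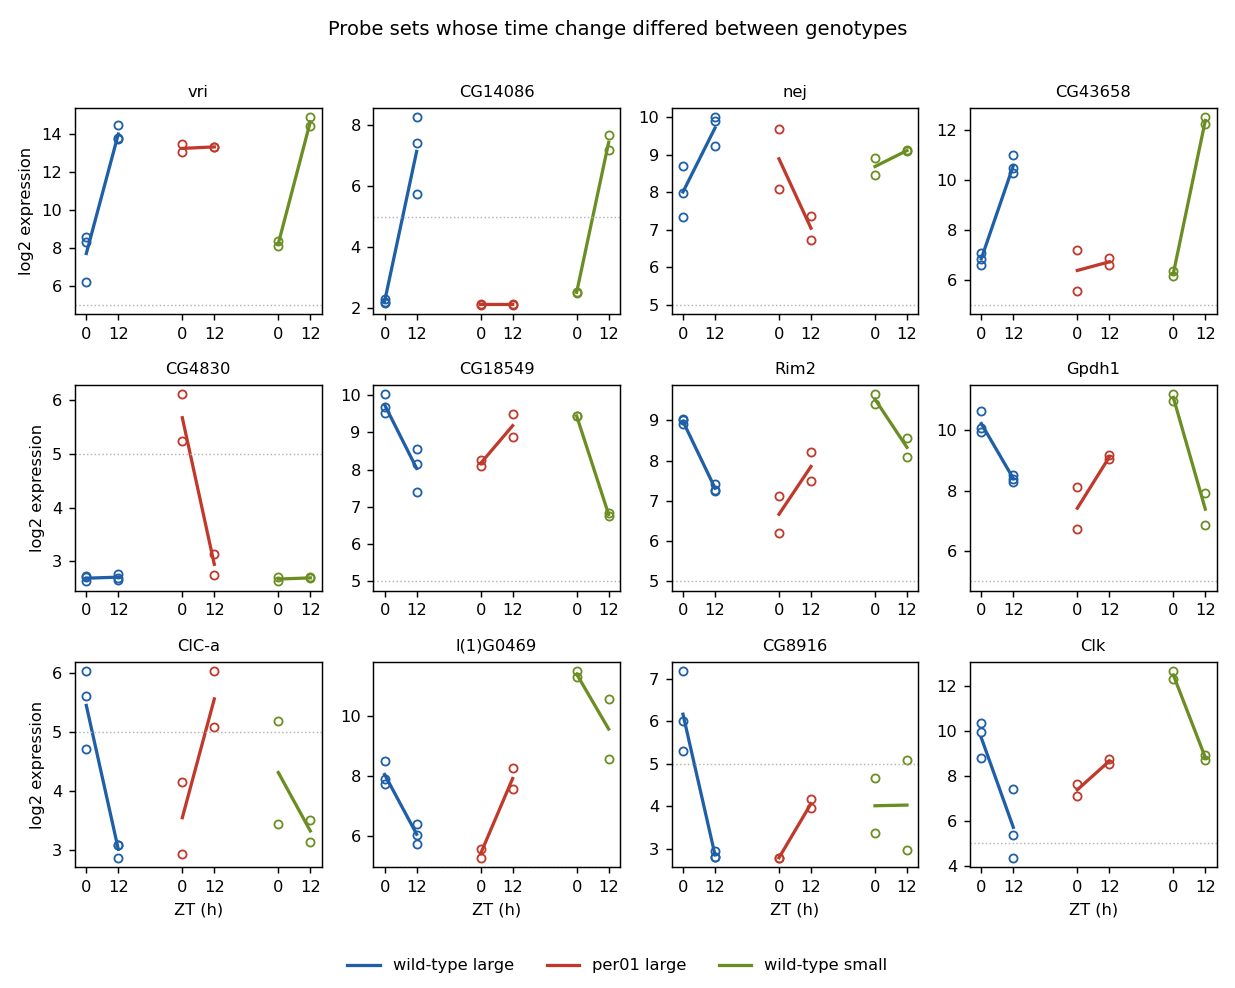
Log2 expression at ZT0 and ZT12 of the 12 probe sets called in the interaction, ordered from -6.21 (vri) to 5.27 (Clk), with 1 circle per array and lines joining group means. In 11 panels the per01 line is flat or runs against the wild-type line, and in the CG4830 panel only the per01 ZT0 arrays are above the dotted background line (5).

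Of 19 measured genes of cAMP and calcium signalling, Pka-R1 rose and Pde1c fell in wild type on the probe set with the highest mean (10.5%, beside 2.19% of all probe sets), SERCA fell on another, and none was called in per01. Pde1c, a calmodulin-dependent phosphodiesterase, read 7.97, 8.65 and 9.19 at wild-type ZT0 and 7.13, 5.47 and 6.14 at ZT12. In per01 it read 7.44 and 6.84 at ZT0 and 8.69 and 8.45 at ZT12, the reverse order (interaction 3.78 ± 0.77, adjusted p = 0.0577). Pde11, another phosphodiesterase, read 12.71, 12.94 and 12.40 at wild-type ZT0 and 9.87, 6.07 and 8.72 at ZT12, and 12.20, 11.54, 11.09 and 10.32 on the per01 arrays. As deposited, all 4 per01 arrays were below the wild-type ZT0 arrays and above the ZT12 arrays. The mean per01 level of Pde11 lay 0.31 of the way from ZT0 to ZT12, and 0.22 and 0.14 under the 2 other scalings. The Pde11 interaction of 3.29 ± 1.29 was not called (adjusted p = 0.51).

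The dopamine receptor gene Dop1R1 read 9.53, 10.05 and 10.09 at wild-type ZT0 and 3.81, 6.60 and 6.83 at ZT12. In per01 it read 10.88 and 9.74 at ZT0 and 10.62 and 10.09 at ZT12, within or above the ZT0 range at both times. Its interaction of 4.19 ± 1.35 was not called (adjusted p = 0.401). The Methuselah-like receptor gene mthl14 read 6.21, 7.32 and 6.76 at wild-type ZT0 and under 5 on each ZT12 array, and per01 read 5.31 and 6.46 and then 8.13 and 8.01. Its interaction was 5.82 ± 1.27 (adjusted p = 0.0783) against large PDF neurons and 6.53 (adjusted p = 0.0247) against small ones. Irk1, an inward rectifier potassium channel, read 6.12, 2.98 and 4.48 at wild-type ZT0 and 9.62, 10.09 and 10.46 at ZT12, a rise of 4.68 with values under 5 raised to 5. In per01 it read 7.29, 6.53, 7.90 and 8.09, between the wild-type groups on each array (interaction -4.45 ± 1.09, adjusted p = 0.153). Of 29 measured ion channel genes Irk1 rose and ClC-a fell in wild type (6.9%), and of 33 receptor genes Octbeta1R rose and Dop1R1 fell (6.06%), beside 2.19% of all probe sets. These counts take 1 probe set per gene, and the receptor gene nAChRbeta1 also fell on another.

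The transcription factor gene chinmo, which sets temporal identity in developing neurons, was measured by 2 probe sets and fell in wild type on both. On the first, wild type read 8.97, 9.72 and 9.74 at ZT0 and 5.77, 6.71 and 4.03 at ZT12, and per01 read 6.48, 4.95, 4.87 and 5.83. All 4 per01 arrays lay within the wild-type ZT12 range and far from the ZT0 range. On the second, per01 read 6.20, 5.51, 3.76 and 5.31 against 10.16, 9.97 and 9.90 at wild-type ZT0 and 7.55, 6.86 and 5.17 at ZT12. The interaction against small PDF neurons, where chinmo fell by -6.91 and -7.82, was called on both (6.55 and 6.50, adjusted p = 0.00545 and 0.0013), and that against large PDF neurons on neither (adjusted p = 0.299 and 0.513). CG4629 resembled chinmo in its per01 level only, with per01 arrays at 7.69, 6.11, 6.04 and 5.81. Its wild-type arrays read 11.16, 10.04 and 10.48 at ZT0 and 8.51, 5.78 and 6.92 at ZT12. Unlike chinmo, it was not called lower at ZT12 in small PDF neurons.

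Among the other large changes, CG7272 and CG4168 stayed at the ZT0 level, one low and the other high. CG7272 read 6.44, 7.15 and 7.23 at wild-type ZT0 and 11.61, 10.87 and 12.19 at ZT12, and 5.98, 7.13, 6.65 and 8.20 in per01. CG4168 read 8.97, 10.05 and 9.62 at ZT0 and 4.73, 7.12 and 3.03 at ZT12 in wild type, and 9.09, 8.85, 8.79 and 9.19 in per01. The per01 arrays of both lay outside the wild-type ZT12 range. Other per01 levels lay between the wild-type means, at a share of the way from ZT0 to ZT12 that moved with the scaling of the arrays. The amino acid transporter gene JhI-21 lay 0.25 of the way as deposited and 0.42 and 0.44 under the 2 other scalings. The cadherin gene Cad87A, whose other probe set had the opposite sign, lay at 0.58, 0.70 and 0.80, and the glycosyltransferase gene Pgant9 at 0.47, 0.67 and 0.66. Among the falls, CG11791 lay at 0.32, 0.19 and 0.15, CG14662 at 0.32, 0.021 and 0.090, and tinc at 0.42, 0.27 and 0.20. CG42540, which rose by 3.27 in wild type, lay below its ZT0 mean in per01.

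Some of the wild-type rises were also higher at ZT12 in per01 without being called. Of the 82 wild-type rises, 13 were higher at ZT12 in per01 at an unadjusted p under 0.05, beside 2.62% of all probe sets, and 2 were lower. Over the 13, chosen by this p, the per01 difference was 0.46 to 1.30 of the wild-type one, with a median of 0.79. Of the 100 falls, 3 were lower (CG13950, CG33958 and kel), beside 0.998% of all probe sets, and 9 were higher. None of these passed the adjustment over all probe sets. Apart from the genes the naming rule had picked, those named in this and the next paragraph were chosen after their values were seen.

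Pka-R1, a regulatory subunit of protein kinase A, came nearest to a call among the members. It read 9.97, 10.35 and 10.07 at wild-type ZT0 and 12.04, 11.91 and 12.13 at ZT12, and in per01 9.39 and 9.59 at ZT0 and 11.28 and 12.08 at ZT12. The time groups did not overlap in either genotype. The difference was 1.90 ± 0.31 in wild type and 2.19 ± 0.38 in per01 (adjusted p = 0.0767), and the interaction was 0.29 ± 0.49 (adjusted p = 0.935). The per01 rise of Pka-R1 passed the threshold with no filter (adjusted p = 0.0165), with values under 5 raised to 5 (0.0379), with a variance trend (0.0109) and with array weights (0.0195). It did not pass under the other 7 settings or without any 1 per01 array (adjusted p up to 0.659). The octopamine receptor gene Octbeta1R read 10.42, 9.94 and 9.80 and then 12.66, 12.28 and 12.15 in wild type, and 9.97 and 9.34 and then 11.93 and 11.81 in per01 (2.21 ± 0.73, adjusted p = 0.895). Tdc2, the neuronal enzyme that makes tyramine, the precursor of octopamine, read 7.88, 8.44 and 8.30 and then 11.66, 11.51 and 12.34 in wild type, and 9.30 and 8.52 and then 10.69 and 11.57 in per01 (2.22 ± 0.64, adjusted p = 0.771). For both the higher time was ZT12 on every array of both genotypes.

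The active zone gene Fife had a per01 difference of 1.40 ± 0.36 (adjusted p = 0.563) against 1.68 in wild type, and the sulfotransferase gene St3 one of 2.02 ± 0.40 (adjusted p = 0.192) against 1.55. Sidpn, a Hairy-related repressor gene, had 2.35 ± 0.75 against 5.11, with per01 ZT12 arrays at 7.95 and 8.23 far under the wild-type ones at 11.31, 12.23 and 11.78. The wild-type ZT6 arrays, whose means did not enter the difference that chose the members, were read beside them. Their values did enter the filter on level and the pooled spread. Over the 13 rises, the ZT6 minus ZT0 difference had a median of 0.60 of the ZT12 minus ZT0 difference and reached at least 0.5 of it in 10. Over the other 69 rises the median was 0.24, and 22 reached it. At ZT18 the medians were 0.079 and 0.29. The ZT6 arrays of Pka-R1 read 11.87 and 11.79 and those at ZT18 9.91 and 9.86, so it was as high in mid-day as at lights-off and as low at mid-night as at lights-on. No ZT6 minus ZT0 difference among the 82 rises was called. These shares are a description: all are ratios to the wild-type difference that chose the members and use its ZT0 arrays.

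Tdc2 is also a marker of octopaminergic and tyraminergic neurons. Of 9 markers of other neurons on the array, Tdc2, SerT and DAT averaged at least 5 in wild type and Tdc2 and DAT in per01. Their summed level rose with Tdc2, from 10.69 to 10.99 at ZT0 to 11.95 to 12.79 at ZT12 in wild type and from 9.91 to 10.35 to 11.81 to 11.88 in per01. Vmat, the vesicular monoamine transporter of such neurons, was under 5 on all 10 arrays. ChAT, another of the 9 markers, stood at 7.68 on wild-type ZT0 replicate 1 and under 5 on the other arrays compared.

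**Figure D4:**
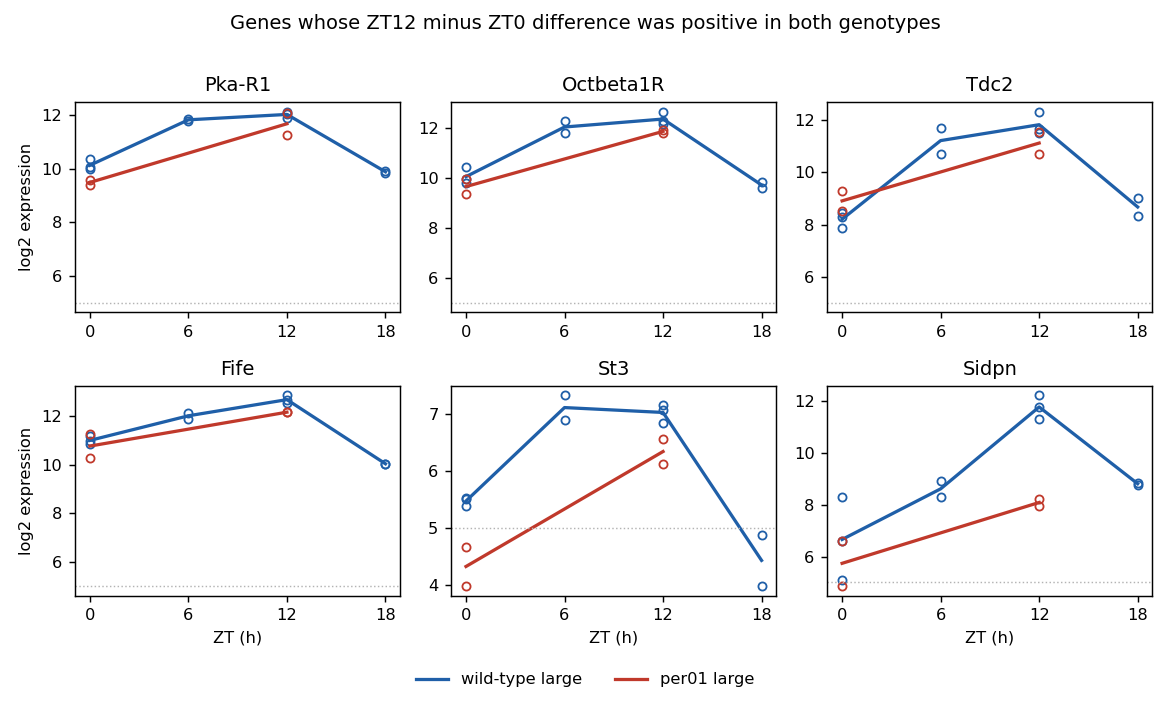
Log2 expression of 6 members against time of day in wild-type (ZT0, 6, 12 and 18) and per01 (ZT0 and 12) large PDF neurons, with 1 circle per array and lines joining group means; the dotted line is background (5). In per01 each mean is higher at ZT12 than at ZT0, as in wild type, and the ZT18 mean of Pka-R1, Octbeta1R, Fife and St3 is at or below the ZT0 mean.

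The level held in per01 was expressed for the 124 placed members as a position, 0 at the wild-type ZT0 mean and 1 at the ZT12 mean. Positions within 0.25 of 0 were called near ZT0 and those within 0.25 of 1 near ZT12. Of the 53 placed rises, 26 were near ZT0, 17 between, 4 near ZT12 (vri, Pdp1, beat-IV and Rab27, of which Pdp1 and Rab27 lay beyond ZT12 in the 2 other scalings below) and 6 beyond ZT0, with a median of 0.15. Of the 71 placed falls, 13 were near ZT0, 40 between, 14 near ZT12, 1 beyond ZT0 and 3 beyond ZT12, with a median of 0.51. Called apart from the ZT12 mean and not from the ZT0 mean were 38 rises and 30 falls, and from ZT0 and not ZT12 6 rises and 30 falls. On the per01 ZT0 arrays alone the rises had a median of 0.037 and on the ZT12 arrays alone 0.32, with 44 and 32 of 53 nearer ZT0. Over all probe sets 26.4% differed from wild-type ZT12 and 22.3% from ZT0, and the wild-type arrays of these tests also chose the members.

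These positions depended on how the arrays were scaled. Over all 8318 probe sets per01 lay -0.69 from wild type in the median as deposited, and 0.007 after all arrays were given 1 distribution (requantiled) and 0.07 after median centring. For the same 53 rises the median position was 0.15 as deposited, 0.46 requantiled and 0.52 median centred. For the same 71 falls it was 0.51, 0.23 and 0.16. So as deposited per01 lay nearer ZT0 in 42 of 53 rises and 34 of 71 falls, and median centred in 25 and 62. Whether rises or falls were held nearer ZT0 therefore turned with the scaling, so the next paragraph names members with the same placement in all 3 versions.

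**Figure D5:**
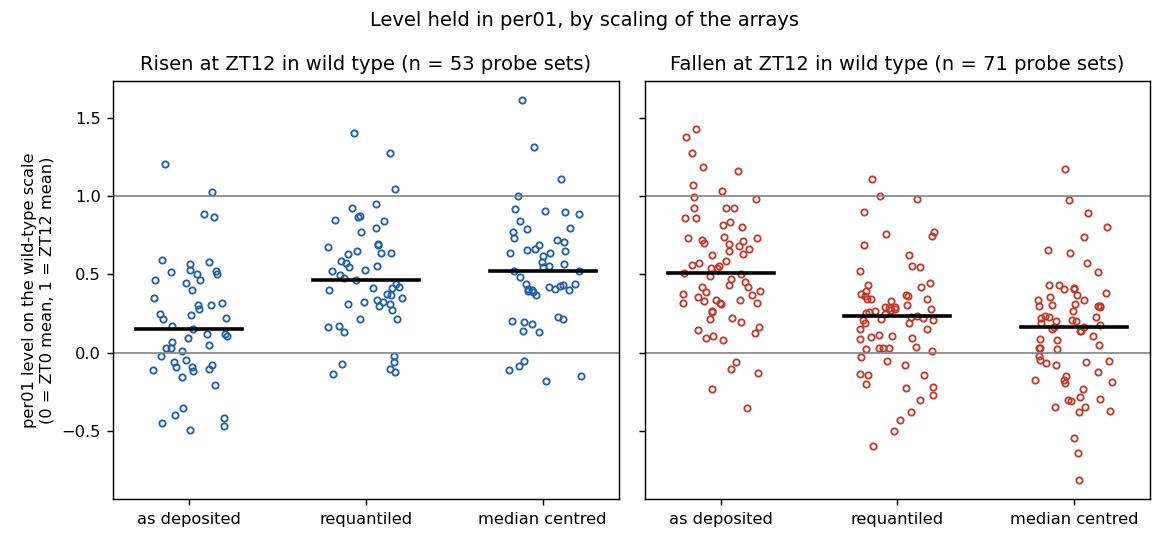
Position of the per01 level on the wild-type scale (0 = ZT0 mean, 1 = ZT12 mean) for 53 rises and 71 falls, with 1 circle per probe set and a black bar at the median, under 3 scalings of the arrays. The median of the rises moves from 0.15 to 0.46 and 0.52, and that of the falls from 0.51 to 0.23 and 0.16.

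In all 3 versions 57 members (23 rises and 34 falls) lay nearer the ZT0 level, 20 (11 rises and 9 falls) nearer the ZT12 level, and 47 changed side. Near ZT0 in all 3 were the rises CG43658, CG7272, Sidpn and HUWE1 (a ubiquitin ligase) and the falls CG4168, Rpp25, mtt and nAChRbeta1, the last 2 a metabotropic glutamate receptor relative and a nicotinic receptor subunit. Near ZT12 in all 3 were the rises vri and beat-IV and the falls chinmo, on its first probe set, and CG4629. The position averages both per01 times. Of these genes beat-IV and Sidpn were among the 13 rises higher at ZT12 in per01 at an unadjusted p under 0.05. From ZT0 to ZT12 the per01 mean of beat-IV went from 8.28 to 9.92 and that of Sidpn from 5.74 to 8.09. The kinase gene Aduk lay beyond the ZT0 level in all 3, with wild-type arrays at 6.28, 6.33 and 7.27 at ZT0 and at most 4.20 at ZT12, and per01 arrays at 7.82, 7.38, 7.76 and 7.74. HUWE1 read 8.21, 8.42 and 8.05 at wild-type ZT0 and 10.49, 10.60 and 10.39 at ZT12, and 8.47, 7.93, 8.02 and 7.40 in per01. The nicotinic subunit read 10.61, 10.55 and 10.71 at ZT0 and 8.36, 9.22 and 8.66 at ZT12, and 9.63, 10.91, 10.19 and 10.28 in per01. These genes were named for their placement, after their values were seen.

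The other 58 members averaged under 5 in per01 and were not placed. They were 29 rises, of which 26 also averaged under 5 at wild-type ZT0, and 29 falls, of which 25 averaged under 5 at wild-type ZT12. For those a per01 level at the low wild-type end could not be read above background. A rise whose ZT0 mean was under 5, or a fall whose ZT12 mean was under 5, was therefore placed only when per01 stood higher. The counts of placed members are not counts over all members.

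Members that small PDF neurons also called in the same direction, and that were placed in per01, numbered 33 (12 rises and 21 falls, 27 genes). None was called in per01, and their per01 difference had a median ratio to the wild-type one of 0.033. Against small PDF neurons 15 of the 33 had a called difference in time change, a description, since the small PDF call also chose the 33. They included vri, Pura, CG43658 and cno, picked after its values were seen, among the rises and Clk, mthl14, CG18549, both chinmo and 3 Gpdh1 probe sets among the falls. Tdc2, whose interaction against small PDF neurons was -1.15 (adjusted p = 0.779), was not among them.

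The remaining lists held 0 to 2 called genes each, on 1 probe set per gene, beside 2.19% of all probe sets. Of 25 measured genes of metabolism the transporter gene MFS3 rose (2.89 ± 0.42 in wild type, 0.48 ± 0.52 in per01) and Gpdh1 fell (8%). Of 25 genes of neurite growth and adhesion, beat-Ic and Pura rose, with beat-Ic at 3.08 ± 0.60 in wild type and 1.27 ± 0.73 in per01 (8%), and Timp fell on another probe set. Of 30 respiratory chain genes ND-15 fell (3.33%) and of 26 proteasome and ubiquitin genes Prosbeta2 fell (3.85%), with per01 differences of 0.21 and -0.20. Of 12 activity-regulated genes only cbt rose (8.33%). No gene was called in wild type among 10 known head cyclers, 10 PDF-neuron identity genes, 18 genes of peptide processing and release, 13 chaperones or 13 ribosomal protein genes. In per01 no gene of any of the 16 lists was called, apart from Pka-R1 under the 4 settings given above. At the edge of the choice, rin and Octbeta1R were just inside the threshold (adjusted p = 0.0497 each) and Rtca and CG2225 just outside (0.0503 and 0.0507).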

How the data were processed

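Per the submitters' processing notes, the authors deposited log2 expression values per probe set, made with GCRMA in R 2.6 from Affymetrix arrays. GCRMA corrects background and equalizes array distributions. Which arrays were normalized together, and the genome annotation used, are not given in the sources used here. In all, the table held 18952 probe sets on 24 arrays. Removing 183 control probe sets and keeping those with at least log2 5 on at least 2 arrays left 8318. Probe sets were named from the platform annotation, with symbols updated through RefSeq gene IDs (13647 with 1 symbol, 402 with several, 4720 with none).

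From these values limma 3.58.1 (R 4.3.3) fitted a mean to every one of the 10 combinations of cell kind, genotype and time point. It used lmFit and eBayes, with 14 residual and 3.62 prior degrees of freedom. Adjustment was by Benjamini and Hochberg over all 8318 probe sets in each comparison, two-sided, and called under 0.05. The spread was pooled over groups, although the median standard deviation was 0.29 and 0.30 in the per01 groups and 0.46 and 0.59 in wild-type ZT0 and ZT12. Differences are log2 values ± standard error. Those that reach under 5 include background. "Rose" and "fell" are used of called probe sets.

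The named genes were 8 core clock genes and Pdf, the 12 largest placed rises and falls, up to 8 interaction calls each way and up to 6 per01 calls each way with 1 symbol, up to 4 called members of each of 16 gene lists, and 2 genes each side of the threshold. Where a gene had several probe sets, the one with the highest mean represented it. The members, lists and rules were chosen with earlier results of these data known.

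Replicate numbers did not pair the arrays: deviations of same-numbered ZT0 and ZT12 arrays correlated at -0.003, 0.064 and 0.025 in wild type, 0.139 for both numbers in per01 and -0.028 in small PDF neurons. The fitting procedure was tested on simulated data. Alternatives were other filters and scalings, a floor, a variance trend, array weights, 1 probe set per gene, a replicate block, only the groups compared, and leaving out each array. Python 3.11.15, pandas 2.3.3, numpy 2.4.6 and matplotlib 3.10.9 were used.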

Additional observations from a re-analysis of the deposited data

Results flagged for a closer look

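For 12 probe sets the ZT12 minus ZT0 difference in large PDF neurons was itself different between per01 and wild type, by limma's interaction test over all probe sets. The interaction was negative, with a higher time difference in wild type, for vri (-6.21), CG14086 (-4.92), nej (-3.56), CG43658 (-3.39) and CG4830 (-2.75). It was positive for CG18549 (2.72), Rim2 (2.85), Gpdh1 (3.52), ClC-a (4.46), l(1)G0469 (4.48), CG8916 (4.57) and Clk (5.27). Only vri was called without each of the 10 arrays in turn, and CG4830 without 9 of the 10, the others without 1 to 6. The other Gpdh1 probe sets had the same sign and the other nej probe set the opposite one. Groups had 2 or 3 arrays, too few for a search for single arrays that stand apart within a group.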

How the results depend on the processing

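Wild-type calls numbered 182, 288 with a variance trend and robust moderation, and 116 to 221 when 1 array was left out. Calls in per01 numbered 1, 4 with no filter, 0 with a filter at log2 7, 2 with a floor at log2 5, 2 with array weights and 1 to 3 without 1 array. Interaction calls numbered 12, 21 with the filter at log2 7, 20 with the floor, 23 with array weights and 2 to 34 without 1 array. Small PDF calls numbered 282 and 133 to 254 without 1 array. The interaction against small PDF neurons had 93, 151 with the floor and 41 to 100 without 1 array. Fitting only the groups compared gave 0 calls in wild type, 0 in per01, 0 in small PDF neurons, 0 in the interaction and 10 in that against small PDF neurons. With the replicate number as a block, wild type had 176 calls (160 shared), the interaction 12 (9 shared) and per01 1, so no count moved by over 1.5 times.

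The placed rises had a median position of 0.15, and 0.49 requantiled and 0.55 median centred with members chosen anew. With the same 182 members but the level in per01 filtered anew, an alternative added after seeing the data, it was 0.45 and 0.51. The placed falls had 0.51, then 0.21 and 0.14, and with the same 182 members 0.24 and 0.16. A floor gave falls 0.70. Without 1 array the median ran from 0.074 to 0.31 for rises and from 0.39 to 0.57 for falls. Rises nearer ZT0 numbered 42 of 53, 99 of 113 with the floor, 89 of 106 with a variance trend, 18 of 25 at an adjusted p under 0.01 and 27 to 45 without 1 array. Falls nearer ZT0 numbered 34 of 71, 58 of 72 requantiled, 59 of 68 median centred, 63 of 122 with a variance trend, 21 of 48 with all 10 arrays at least log2 5, 8 of 17 at an adjusted p under 0.01 and 14 to 64 without 1 array. With the same 182 members they were 62 of 76 requantiled and 64 of 73 median centred. Of the single-gene results recomputed, 2331 kept direction and side of the threshold, 211 lost their call, 34 gained one and none changed sign while called. Values under log2 5 limit what can be read of 58 members in per01. The cause of these shifts was not tested.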
